A study of Homo sapiens with 12 samples.

Results

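Transcripts of 10 genes that encode factors of blood vessel growth and their receptors were followed in PANC-1, a cell line from a human pancreatic ductal adenocarcinoma. The members were chosen by name: VEGFA, VEGFB, VEGFC, PGF, ANGPTL4, ANG, FLT1, KDR, NRP1 and NRP2, which are 10 of the 60617 genes in the table. RNA was sequenced in 12 libraries in 4 groups of 3. Cells received siGL3 (a control siRNA against firefly luciferase), siMYOF (an siRNA against MYOF, which encodes the membrane repair and vesicle trafficking protein myoferlin), the solvent DMSO, or WJ460 at 50 nM, a small molecule used in the study as a myoferlin inhibitor. All cells carried a wild-type genotype per the labels, were labelled 48 h, and came from cultures of this 1 cell line. In the methods of the study the clock of the knockdown starts at a wash that follows transfection. No schedule is given there for the sequenced DMSO and WJ460 cultures, so a difference in the time since the start of treatment is possible. Only a single dose of WJ460 and a single time were sequenced in these libraries. The methods of the study describe biological replicates of PANC-1 in a passage on the knockdown. They do not name the DMSO and WJ460 cultures there, and if those replicates were not separate cultures, the spread behind their p-values is technical.

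Vascular endothelial growth factors are secreted dimers that bind receptor tyrosine kinases on endothelial cells. VEGFA signals mainly through KDR (VEGFR2) and also binds FLT1 (VEGFR1), PGF and VEGFB bind FLT1, and VEGFC acts on the lymphatic receptor FLT4 and, once processed, on KDR. The neuropilins NRP1 and NRP2 are co-receptors that bind VEGFs and class 3 semaphorins and, unlike the kinases, are common on carcinoma cells. In tumors the ligands come largely from the cancer cells and the kinases sit on the vessels, and VEGFA and ANGPTL4 are textbook targets of the hypoxia-inducible factors.

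Between 12335147 and 19847210 reads were assigned to genes per library. Replicate 1 of siGL3 and of siMYOF belonged to an early batch per the labels and the other 10 libraries to a late one. Values are read counts that the authors divided by a size factor per library (normalized read counts), and differences are log2 fold changes of the normalized count + 1, fitted with limma over all 12 libraries with the batch as a term. The threshold was an adjusted p of 0.05 (Benjamini-Hochberg, over 14720 tested genes). The siRNA target, MYOF (ENSG00000138119), measured 12786, 20169 and 17823 in siGL3 and 3470, 2372 and 2003 in siMYOF, which is -2.71 on the log2 scale (SE 0.23, limma adjusted p = 2.41e-05). In WJ460 the MYOF transcript differed from DMSO by 0.16 (SE 0.23, limma adjusted p = 0.603). Since whole cultures were sequenced, fewer cells that express a gene and less RNA per cell cannot be told apart, and proteins and their secretion were not measured.

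The regions before the transcription starts of ANGPTL4, VEGFB and VEGFC are shown because these members had the largest changes in a treatment, in both directions. RefSeq sequences (GRCh38.p14) were found for 8 of the 10 members, VEGFA and NRP1 being those without an entry. Each run holds the 250 bases before the RefSeq start, 5′ to 3′ on the strand of the gene. Capitals mark the core of the hypoxia response element, ACGTG, and the GC box, GGGCGG, each in either direction (CACGT and CCGCCC on the printed strand), and overlapping matches run together. ANGPTL4 is at chr19:8363905-8364154 on the plus strand, VEGFB at chr11:64234334-64234583 on the plus strand, and VEGFC at chr4:176792923-176793172 on the minus strand.
ANGPTL4: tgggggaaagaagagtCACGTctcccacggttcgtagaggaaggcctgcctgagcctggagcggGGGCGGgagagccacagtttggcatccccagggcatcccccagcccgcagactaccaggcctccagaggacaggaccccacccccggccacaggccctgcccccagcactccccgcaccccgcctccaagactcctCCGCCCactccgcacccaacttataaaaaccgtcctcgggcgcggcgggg
VEGFB: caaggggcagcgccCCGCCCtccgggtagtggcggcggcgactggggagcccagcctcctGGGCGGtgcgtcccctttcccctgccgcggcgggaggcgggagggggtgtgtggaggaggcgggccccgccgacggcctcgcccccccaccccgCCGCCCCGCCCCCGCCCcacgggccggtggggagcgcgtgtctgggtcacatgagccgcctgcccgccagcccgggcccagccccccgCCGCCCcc
VEGFC: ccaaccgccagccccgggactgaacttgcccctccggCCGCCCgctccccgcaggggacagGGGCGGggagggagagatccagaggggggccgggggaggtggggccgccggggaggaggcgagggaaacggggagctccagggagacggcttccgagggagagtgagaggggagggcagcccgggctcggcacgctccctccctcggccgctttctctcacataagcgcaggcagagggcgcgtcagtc

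ANGPTL4 held 1 match to the hypoxia response core, 234 bases before the start, and 2 GC boxes, and 68.8% of its bases were G or C. VEGFB held no hypoxia core and 6 GC boxes, with 82.8% G or C, and VEGFC no hypoxia core and 2 GC boxes, with 74% G or C. Of the 8 members with an entry, 1 had the ACGTG core, which 18.5% of 35116 RefSeq promoter windows of this length had. The GC box was in 7 of 8 against 42.6% of all windows, and the TATA box TATAAA in 2 of 8 against 10.7%. The AP-1 motif TGANTCA, in 6.57% of windows, and the motif TGATGNAA of C/EBP-ATF dimers, in 3.14%, were in none of the 8. All motifs were searched on both strands. A match describes letters only, and it says nothing about whether a factor bound there.

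In DMSO, levels per kb of the MANE Select transcript ordered the members, so that levels of different genes can be compared. NRP1 stood highest at 282 ± 4.64 normalized reads per kb (SD, n = 3), above 76.3% of the tested genes, followed by VEGFB at 248 ± 12.7, VEGFA at 170 ± 6.32 and ANGPTL4 at 116 ± 10.2. No library ranges overlapped between neighbours among these. VEGFC reached 39.9 ± 2.61 per kb, and ANG at 13.3 ± 4.68 and PGF at 12.4 ± 3.51 overlapped each other. NRP2, at 0.962 ± 0.341 per kb, exceeded only 1.28% of the tested genes. The order differed between groups. In siGL3 VEGFB led at 377 ± 119 per kb, and NRP1, ANGPTL4 and VEGFA followed at 211 ± 55.1, 198 ± 31.5 and 133 ± 51.9 with overlapping ranges. In siMYOF ANGPTL4 led at 587 ± 143 per kb and VEGFB, at 139 ± 18.9, came after NRP1 (360 ± 96.3) and VEGFA (229 ± 104).

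Of the 10 members, 8 had a mean normalized count of at least 5 and were tested. With siMYOF, VEGFA, VEGFC, ANGPTL4 and NRP1 rose and VEGFB fell, so 5 of 8 tested members passed (4 higher, 1 lower), against 53.9% of all tested genes (28.0% higher, 25.9% lower). With WJ460, VEGFC rose and VEGFA, VEGFB and NRP1 fell, so 4 of 8 passed (1 higher, 3 lower), against 52.9% of all tested genes (27.3% higher, 25.6% lower). These shares are near the background, so that the number of members called is not a result about the members. Between the early and late siRNA libraries 5 of 8 members differed (2 higher, 3 lower in the early ones). Of all tested genes 45.0% differed (21.2% higher, 23.8% lower). Values of each batch are therefore given beside the knockdown results of the members. The median log2 fold change of the 8 members was 0.54 with siMYOF and -0.45 with WJ460, where the median of all tested genes was 0.01 and 0.

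VEGFA (ENSG00000112715, chromosome 6, 43770184 to 43786487, plus strand, GRCh38), the main driver of vessel growth in tumors, measured 693, 394 and 348 normalized reads in siGL3 replicates 1, 2 and 3 and 1260, 633 and 585 in siMYOF. Each siMYOF library stood above every siGL3 library of its batch, while across batches the early siGL3 library lay above both late siMYOF libraries. VEGFA rose by 0.76 on the log2 scale with siMYOF (SE 0.11, limma adjusted p = 1.07e-05), with 0.86 between the early libraries and 0.71 between the late ones, and the ratio of group means was 1.73. DMSO libraries held 616, 589 and 634 and WJ460 libraries 493, 351 and 350, so every WJ460 library was lower than every DMSO library. VEGFA fell by 0.64 on the log2 scale with WJ460 (SE 0.11, limma adjusted p = 7.78e-05), which is a 1.54-fold lower mean. The knockdown and inhibitor effects thus had opposite signs and differed by 1.40 (SE 0.16, limma adjusted p = 7.60e-07). Both VEGFA calls were lost in a limma fit without the batch term, with adjusted p = 0.0632 for siMYOF and 0.117 for WJ460. The log2 values were the same in that fit, 0.76 and -0.64. All DMSO and WJ460 libraries are late, so the term enters their comparison only through the spread estimated over all 12 libraries. VEGFA was also 0.98 higher on the log2 scale in the early than in the late siRNA libraries (limma adjusted p = 2.23e-06).

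VEGFB (ENSG00000173511, chromosome 11, 64234584 to 64239264, plus strand), an FLT1 ligand linked to the supply of fatty acids to tissues more than to vessel sprouting, measured 464, 685 and 893 in siGL3 and 214, 281 and 257 in siMYOF. The groups did not overlap, and the lowest siGL3 value came from the early library. VEGFB fell by 1.40 on the log2 scale with siMYOF (SE 0.12, limma adjusted p = 1.11e-08), with -1.12 between the early libraries and -1.54 between the late ones, a 2.72-fold lower mean. In DMSO it measured 424, 448 and 470 and in WJ460 294, 274 and 341, again without overlap. VEGFB fell by 0.57 on the log2 scale with WJ460 (SE 0.12, limma adjusted p = 4.33e-04), a 1.48-fold lower mean. VEGFB was the only one of the 8 tested members that fell with both treatments, and the fall with siMYOF was larger by 0.83 on the log2 scale (difference -0.83, SE 0.16, limma adjusted p = 3.52e-04).

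VEGFC (ENSG00000150630, chromosome 4, 176683538 to 176792922, minus strand), the main growth factor of lymphatic vessels, measured 84.7, 89.4 and 96.4 in DMSO and 159, 184 and 176 in WJ460. All WJ460 libraries were above all DMSO libraries, and VEGFC rose by 0.93 on the log2 scale (SE 0.15, limma adjusted p = 5.40e-05), a 1.92-fold higher mean. In siGL3 it measured 73.9, 126 and 124 and in siMYOF 154, 140 and 149. These groups did not overlap either, but the early siGL3 library lay well below the late ones. VEGFC rose by 0.49 on the log2 scale with siMYOF (SE 0.15, limma adjusted p = 0.0121), with 1.05 between the early libraries and 0.21 between the late ones. That call rests on the early pair: adjusted p = 0.277 in the late libraries alone, 0.273 without siGL3 replicate 1 and 0.286 without siMYOF replicate 1. The difference between the effects was -0.44 (95% interval -0.90 to 0.02, limma adjusted p = 0.104), and in the late libraries alone it was -0.73 (limma adjusted p = 0.00535).

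PGF (ENSG00000119630, chromosome 14, 74941834 to 74955626, minus strand), placental growth factor, was read at a low level. Its normalized counts were 22.2, 16.9 and 17.8 in siGL3 and 26.8, 30.7 and 26.6 in siMYOF. In DMSO they were 14.8, 26.5 and 23.6 and in WJ460 19.3, 13.6 and 16.8. The siMYOF libraries were all above the siGL3 libraries, while DMSO and WJ460 overlapped through DMSO replicate 1. Neither difference passed: 0.55 with siMYOF (95% interval -0.03 to 1.13, limma adjusted p = 0.103) and -0.34 with WJ460 (95% interval -0.92 to 0.24, limma adjusted p = 0.318). The difference between the effects was 0.89 (95% interval 0.07 to 1.70, limma adjusted p = 0.0687), and without DMSO replicate 1 it was 1.13 (limma adjusted p = 0.0246).

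ANGPTL4 (ENSG00000167772, chromosome 19, 8363289 to 8374370, plus strand) encodes a secreted protein that inhibits lipoprotein lipase and acts on endothelial junctions. It measured 412, 303 and 396 in siGL3 and 1407, 949 and 939 in siMYOF, so that each siMYOF library was above all siGL3 libraries. ANGPTL4 rose by 1.55 on the log2 scale (SE 0.13, limma adjusted p = 2.39e-08), a 2.97-fold higher mean, with 1.77 between the early libraries and 1.44 between the late ones. It held 229, 195 and 227 in DMSO and 276, 212 and 192 in WJ460, where the groups overlapped. The WJ460 difference of 0.05 did not pass (95% interval -0.23 to 0.32, limma adjusted p = 0.781), so a rise of the size seen with siMYOF lies outside its interval. The effects differed by 1.51 (SE 0.18, limma adjusted p = 3.25e-06). The promoter window printed above lies within the gene span of the GENCODE annotation, because the RefSeq start is downstream of the first annotated one.

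**Figure D1:**
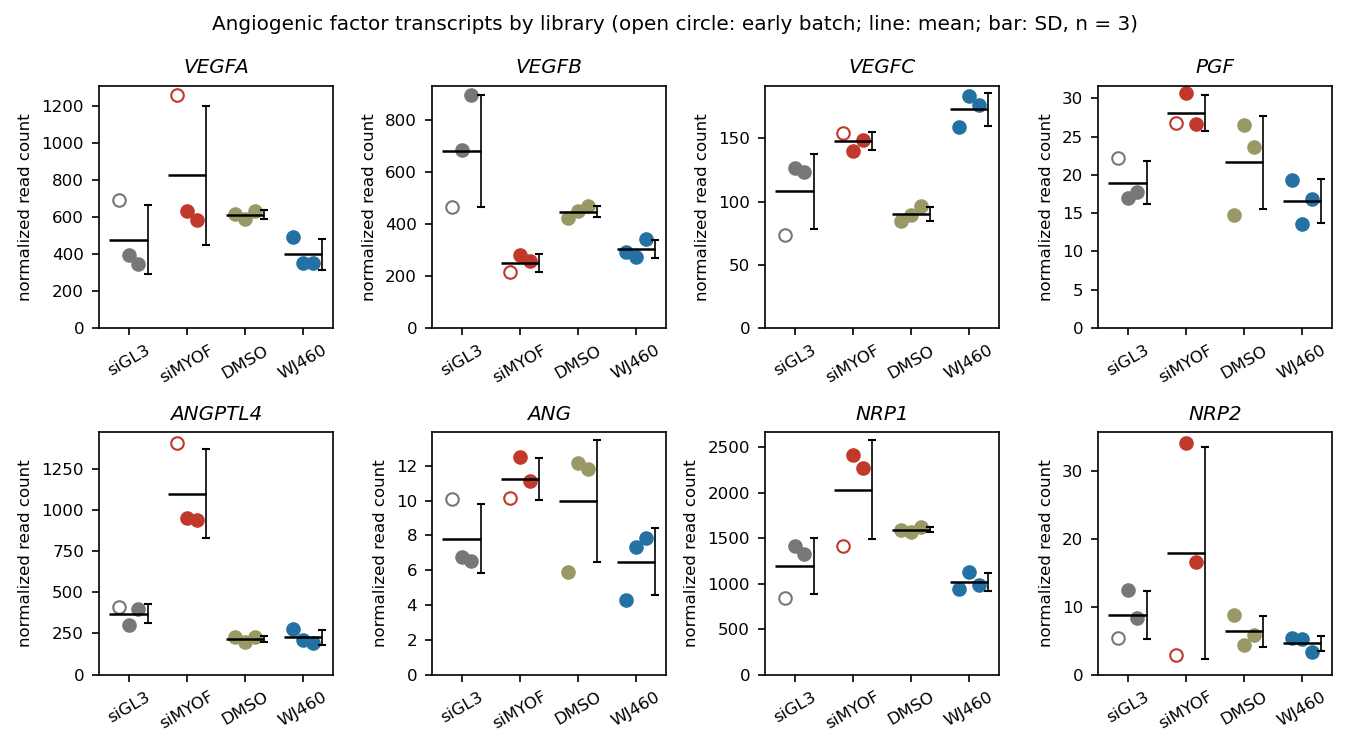
Normalized read count (y axis) of the 8 tested members in each of the 12 libraries by group (x axis). Open circles are early libraries, filled circles late ones, lines group means and bars SDs (n = 3). ANGPTL4 in siMYOF (939 to 1407) lies above the other groups, and VEGFA and NRP1 in WJ460 lie below DMSO.

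ANG (ENSG00000214274, chromosome 14, 20684177 to 20698971, plus strand) encodes angiogenin, a secreted ribonuclease of the RNase A family. With 4 to 15 reads per library, its normalized counts were 10.1, 6.78 and 6.55 in siGL3, 10.1, 12.5 and 11.1 in siMYOF, 5.91, 12.1 and 11.8 in DMSO and 4.29, 7.30 and 7.86 in WJ460. All siMYOF libraries were above the siGL3 libraries, by a margin under 1 normalized read for the early pair, and DMSO and WJ460 overlapped. The difference was 0.50 with siMYOF (95% interval -0.32 to 1.31, limma adjusted p = 0.297) and -0.53 with WJ460 (95% interval -1.34 to 0.29, limma adjusted p = 0.268). Neither passed, and changes within these intervals are not excluded. RNASE4, which shares a locus with ANG, had group means of 0.31 in siGL3, 0.74 in siMYOF and 0 in DMSO and WJ460 and was not tested, and how reads of the exons that both genes share were divided is not stated. None of the 8 listed genes of the ANG locus and RNase A family was above the filter. RNH1, the intracellular inhibitor of angiogenin, measured -0.25 with siMYOF (limma adjusted p = 0.244) and 0.17 with WJ460 (limma adjusted p = 0.437).

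The kinase receptors were close to unread. FLT1 (ENSG00000102755, chromosome 13, 28300346 to 28495145, minus strand) had 4 reads in all of the 176980196: 1 in siMYOF replicate 1, 1 in siMYOF replicate 2 and 2 in WJ460 replicate 1. It had none in siGL3 and none in DMSO, where a count of 0 allows up to 3 reads in the 47319809 and 40145785 reads of these groups (counting error only). KDR (ENSG00000128052, chromosome 4, 55078481 to 55125595, minus strand) also had 4 reads: 2 in siGL3 replicate 1, 1 in siGL3 replicate 2 and 1 in WJ460 replicate 1. Neither was tested, and their expression in these groups could not be told apart at this depth. FLT4, the receptor of VEGFC, was above the filter, with group means of 18.6 in siGL3, 14.3 in siMYOF, 17.4 in DMSO and 29.5 in WJ460.

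NRP1 (ENSG00000099250, chromosome 10, 33177492 to 33336262, minus strand), the co-receptor that binds VEGFA and SEMA3A, had the highest counts of the 4 receptor members. It measured 836, 1413 and 1325 in siGL3 and 1407, 2411 and 2270 in siMYOF. Each siMYOF library exceeded every siGL3 library of its batch, and the early libraries were lower in both groups. NRP1 rose by 0.77 on the log2 scale with siMYOF (SE 0.07, limma adjusted p = 4.37e-08), with 0.75 between the early libraries and 0.77 between the late ones, a 1.70-fold higher mean. In DMSO it measured 1584, 1568 and 1619 and in WJ460 936, 1124 and 989, without overlap. NRP1 fell by 0.65 on the log2 scale with WJ460 (SE 0.07, limma adjusted p = 4.00e-07), a 1.57-fold lower mean. The effects differed by 1.42 (SE 0.10, limma adjusted p = 4.12e-09), so NRP1, like its ligand VEGFA, moved in opposite directions in the 2 treatments.

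NRP2 (ENSG00000118257, chromosome 2, 205681990 to 205798133, plus strand), the co-receptor that binds VEGFC and SEMA3F, was low and uneven. It measured 5.38, 12.4 and 8.42 in siGL3 and 2.90, 34.1 and 16.6 in siMYOF. DMSO held 8.86, 4.41 and 5.90 and WJ460 5.36, 5.22 and 3.37. The early siMYOF library was the lowest of all 12 and the late ones were the highest, and the early libraries were 1.75 lower than the late siRNA libraries on the log2 scale (limma adjusted p = 0.00648). The differences did not pass: 0.53 with siMYOF (95% interval -0.43 to 1.48, limma adjusted p = 0.346), with -0.71 between the early libraries and 1.15 between the late ones, and -0.36 with WJ460 (95% interval -1.32 to 0.59, limma adjusted p = 0.524).

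**Figure D2:**
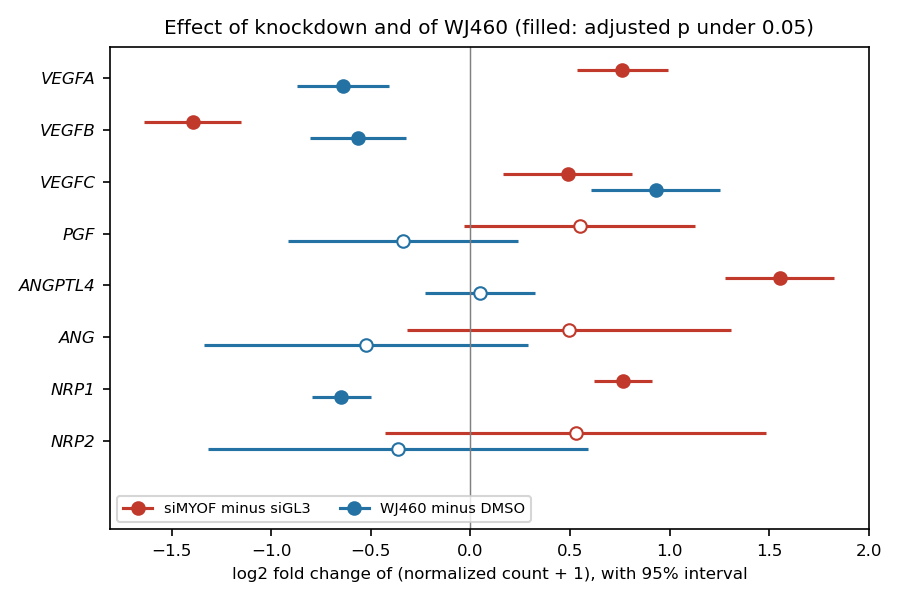
Log2 fold change of the normalized count + 1 (x axis) of the 8 tested members (y axis) for siMYOF minus siGL3 in red and WJ460 minus DMSO in blue, with 95% intervals from limma over 12 libraries; filled points passed at an adjusted p under 0.05. VEGFA (0.76 and -0.64) and NRP1 (0.77 and -0.65) lie on opposite sides of 0, VEGFB lies below 0 and VEGFC above 0 in both.

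Between the knockdown and inhibitor effects, 4 of 8 tested members differed, VEGFA, ANGPTL4 and NRP1 upward and VEGFB downward, against 48.2% of all tested genes (24.2% higher, 24.0% lower). This share too is near the background. For PGF, ANG and NRP2 the 95% intervals of the difference were wide, from 0.07 to 1.70, from -0.13 to 2.17 and from -0.46 to 2.24.

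The members also differed between the control groups, and these are the libraries against which each treatment was set. For siGL3 minus DMSO, 4 of 8 tested members passed (2 higher, 2 lower) against 32.1% of all tested genes (16.1% higher, 16.0% lower). VEGFA was lower in siGL3 by -0.75 (limma adjusted p = 1.01e-04), VEGFB higher by 0.74 (limma adjusted p = 1.88e-04), ANGPTL4 higher by 0.62 (limma adjusted p = 0.00248) and NRP1 lower by -0.21 (limma adjusted p = 0.0361). The NRP1 call was lost without any 1 of the 3 DMSO libraries (limma adjusted p 0.0748 to 0.109), without siGL3 replicate 3 (0.142) and without siMYOF replicate 3 (0.0527). Transfection, solvent and any difference in timing cannot be told apart in this comparison, and it shares its libraries with both treatment comparisons. Set beside DMSO, the late siMYOF libraries held VEGFA at 633 and 585 where DMSO held 589 to 634, so the VEGFA rise with siMYOF was a rise from a siGL3 level that lay below DMSO in the late libraries. VEGFB in siMYOF (214 to 281) lay below DMSO (424 to 470) as well as below siGL3. ANGPTL4 was 5.06-fold higher in siMYOF than in DMSO by group means and 2.97-fold higher than in siGL3. The siMYOF mean includes the early library (1407), and the late ones (949 and 939) also lay above DMSO (195 to 229). NRP1 in the late siMYOF libraries (2411 and 2270) was above DMSO (1568 to 1619), and in the early one (1407) below it. The siMYOF libraries were not tested against DMSO.

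Within a library, the share of each VEGF ligand in their summed level per kb needs no scaling between libraries. VEGFA made up 38.8%, 19.7% and 14.7% of the sum of VEGFA, VEGFB, VEGFC and PGF in siGL3 and 63.3%, 42.7% and 42.0% in siMYOF. VEGFB made up 52.0%, 68.5% and 75.4% in siGL3 and 21.5%, 37.9% and 37.0% in siMYOF. Per kb, VEGFB was thus the leading ligand transcript in every siGL3 library and VEGFA in every siMYOF library. This order rests on the transcript length used for each gene (3609 bases for VEGFA, 1805 for VEGFB). By normalized count VEGFA was above VEGFB in siGL3 replicate 1 (693 and 464). The log2 ratio of VEGFA to VEGFB reads was -0.53 ± 1.00 (SD, n = 3) in siGL3 and 1.64 ± 0.80 in siMYOF, without overlap (exact two-sided permutation test, p = 0.1, the smallest that 3 against 3 libraries allow). In the early libraries the ratio was 0.58 and 2.56, and in the late ones -0.80 and -1.36 in siGL3 and 1.17 and 1.18 in siMYOF. With WJ460 this ratio was 0.38 ± 0.36 against 0.46 ± 0.07 in DMSO, with overlap (exact two-sided permutation test, p = 0.7, n = 3).

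VEGFC took a larger share with WJ460 than with DMSO. Its share was 8.30%, 8.49% and 8.66% in DMSO and 18.4%, 24.0% and 20.9% in WJ460, without overlap (exact two-sided permutation test, p = 0.1, n = 3). The VEGFC share was also larger with siMYOF (12.4%, 15.1% and 17.1%) than with siGL3 (6.61%, 10.1% and 8.34%). These groups did not overlap either (exact two-sided permutation test, p = 0.1, n = 3). In DMSO and WJ460 alike VEGFB was the leading ligand per kb, with 42.7% to 50.6% in WJ460 and 52.0% to 53.2% in DMSO. By normalized count VEGFA was above VEGFB in every DMSO and WJ460 library, with log2 ratios from 0.04 to 0.75. The summed level of the 4 ligands was 364 ± 22.7 normalized reads per kb in WJ460 and 470 ± 20.6 in DMSO, without overlap (exact two-sided permutation test, p = 0.1, n = 3). In siMYOF the sum was 449 ± 89.2 and in siGL3 568 ± 81.5, with overlap (exact two-sided permutation test, p = 0.2, n = 3). The batches went opposite ways, from 495 to 551 in the early libraries and from 555 and 656 to 411 and 386 in the late ones. Of 14 such comparisons none could reach 0.05, before or after adjustment.

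**Figure D3:**
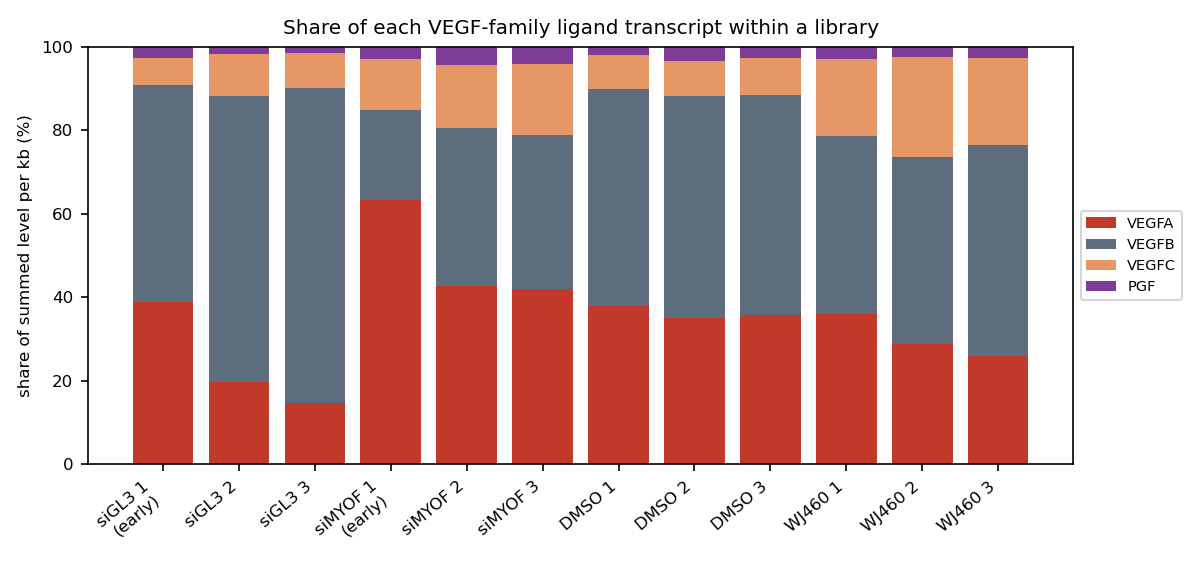
Share (y axis, percent) of VEGFA, VEGFB, VEGFC and PGF in their summed level per kb in each of the 12 libraries (x axis), as stacked bars. VEGFB leads in siGL3, DMSO and WJ460, VEGFA leads in siMYOF (42.0% to 63.3%), and the VEGFC share is largest in WJ460 (18.4% to 24.0%).

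Related genes were taken from lists of the pathway, and their counts are a description beside the median of all tested genes (0.01 with siMYOF, 0 with WJ460) and the share of them that rose or fell (28.0% and 25.9% with siMYOF, 27.3% and 25.6% with WJ460). Nothing here shows that a list differs from the other genes. Each treatment was set against its own control, and 32.1% of all tested genes differed between siGL3 and DMSO. Of other angiogenic ligands, 20 of 32 were tested, and 7 rose, 6 fell and 7 did not pass in each comparison, with medians of 0.00 and 0.04, near those shares. FGF1, a growth factor that acts on many mesenchymal and endothelial cells, rose by 0.75 with siMYOF (limma adjusted p = 0.0114) and by 2.82 with WJ460 (limma adjusted p = 1.76e-08). PDGFC rose by 1.43 and 0.53, and PDGFA, a ligand of fibroblasts and pericytes, fell by 1.47 with siMYOF and fell by 1.01 with WJ460. HDGF, a growth factor that is also nuclear, rose by 0.51 with siMYOF and fell by 0.18 with WJ460. Of 6 other tested receptors of 13, 2 rose and 1 fell with siMYOF, and 2 rose and 3 fell with WJ460. MET, the receptor of hepatocyte growth factor, rose by 1.14 with siMYOF (limma adjusted p = 3.55e-09) and 0.49 with WJ460, and the plexin PLXNB2 fell by 0.53 and 0.36. PDGFRB fell by 1.16 with WJ460 and measured -0.32 with siMYOF (limma adjusted p = 0.25). ENG, a TGFβ co-receptor, rose by 0.29 with siMYOF and measured 0.06 with WJ460 (limma adjusted p = 0.551).

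Semaphorins of class 3 share the neuropilins with the VEGFs, and plexins carry their signal. Of 7 tested genes of this list, 1 rose and 5 fell with siMYOF, with a median of -0.81, against 28.0% and 25.9% of all tested genes. With WJ460 1 rose and 2 fell, with a median of -0.13, against 27.3% and 25.6%. SEMA3F, an NRP2 ligand that opposes vessel growth, fell by 1.36 with siMYOF (limma adjusted p = 7.14e-05) and by 0.71 with WJ460 (limma adjusted p = 0.0155). SEMA3G, also an NRP2 ligand, fell by 2.34 with siMYOF and measured -0.61 with WJ460 (limma adjusted p = 0.254). It was read at a low level, with 32.3, 20.3 and 17.8 in siGL3 and 2.17, 9.11 and 2.22 in siMYOF. Between the early libraries SEMA3G differed by -3.39 and between the late ones by -1.81. SEMA3C was by far the most read of the class, with group means of 1963 in siGL3, 2281 in siMYOF, 1897 in DMSO and 2218 in WJ460, and its differences of 0.24 and 0.22 did not pass (limma adjusted p = 0.0517 and 0.0774). SEMA3A, SEMA3B, SEMA3D and SEMA3E were below the filter. PLXND1 fell by 0.84 and 0.62, and PLXNA3 fell by 0.81 with siMYOF and measured 0.13 with WJ460 (limma adjusted p = 0.339).

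Of 9 tested genes on the list of angiogenesis inhibitors, 2 rose and 3 fell with siMYOF (28.0% and 25.9% of all tested genes), and 1 rose and 3 fell with WJ460 (27.3% and 25.6%). The list also holds VASH2, named here after its values were seen, which is known to promote angiogenesis and was 1 of the 2 that rose with siMYOF (1.91) and 1 of the 3 that fell with WJ460 (-1.14). VASH1, a tubulin carboxypeptidase known as an inhibitor of endothelial growth, fell by 1.10 and 1.23. COL18A1, the collagen from which endostatin is cleaved, fell by 0.74 with siMYOF and rose by 0.25 with WJ460. SPARC fell by 0.99 with WJ460 (limma adjusted p = 2.71e-04) and measured -0.05 with siMYOF (limma adjusted p = 0.834). ADAMTS1, a protease of the matrix, rose by 0.75 with siMYOF and measured 0.37 with WJ460 (limma adjusted p = 0.0879).

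Of 9 tested regulators of the hypoxia response, 6 rose and 0 fell with siMYOF (median 0.31), where 28.0% of all tested genes rose and 25.9% fell. With WJ460 0 rose and 5 fell (median -0.35), where 27.3% of all tested genes rose and 25.6% fell. For the difference between the effects, 7 were higher and 0 lower, where 24.2% of all tested genes were higher and 24.0% lower. EGLN1, the oxygen sensor that marks HIF-α for destruction, rose by 1.21 with siMYOF (limma adjusted p = 3.23e-05) and measured 0.29 with WJ460 (limma adjusted p = 0.211). ARNT2, a partner of HIF-α, rose by 0.65 with siMYOF and fell by 0.95 with WJ460. HIF1AN, a hydroxylase that inhibits HIF-α, fell by 0.78 with WJ460 (limma adjusted p = 2.99e-08). It rose by 0.17 with siMYOF, close to the threshold (limma adjusted p = 0.0478). That rise was 0.29 between the early libraries and 0.10 between the late ones. VHL, the ubiquitin ligase subunit that removes HIF-α, fell by 0.74 with WJ460 and measured -0.13 with siMYOF (limma adjusted p = 0.261). The list holds activators and inhibitors of the response, so its direction is not that of the response.

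Of 18 tested hypoxia targets outside the members, 12 rose and 2 fell with siMYOF (median 0.52), against 28.0% and 25.9% of all tested genes. With WJ460 6 rose and 2 fell (median 0.01), against 27.3% and 25.6%, so the share that rose was near the background. BHLHE40 rose by 1.08 and 0.64 and KDM3A, a histone demethylase, by 0.95 and 0.73. PDK1, the kinase that holds pyruvate out of the mitochondrion, rose by 1.18 with siMYOF (limma adjusted p = 1.16e-07) and measured -0.09 with WJ460 (limma adjusted p = 0.532). NDRG1, a stress-induced gene, fell by 1.85 with siMYOF (limma adjusted p = 6.42e-11), where most called genes of the list rose, and rose by 0.67 with WJ460. Its controls differed, with siGL3 1.26 above DMSO on the log2 scale (limma adjusted p = 2.02e-07). Group means of NDRG1 were 871 in siGL3, 241 in siMYOF, 397 in DMSO and 638 in WJ460. Of 8 tested PPAR receptors and targets, a list included because ANGPTL4 is also a PPAR target, 2 rose and 2 fell with siMYOF and 2 rose and 3 fell with WJ460, near the same shares of all tested genes. PLIN2, which coats lipid droplets, rose by 1.66 and 0.54. ACADVL, an enzyme of fatty acid oxidation, fell by 0.85 with siMYOF and rose by 0.83 with WJ460. CPT1A rose by 0.15 and fell by 0.51, and RXRA fell by 0.68 with WJ460 and measured -0.19 with siMYOF (limma adjusted p = 0.115).

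All 8 listed proteins that bind VEGFA mRNA were tested, and 7 rose and 1 fell with siMYOF (median 0.32), against 28.0% and 25.9% of all tested genes. With WJ460 3 rose and 3 fell (median 0.03), against 27.3% and 25.6%. ELAVL1 (HuR), which stabilizes VEGFA mRNA, rose by 0.28 with siMYOF and fell by 0.54 with WJ460 (limma adjusted p = 5.21e-07). ZFP36 (tristetraprolin), which promotes its decay, rose by 0.67 with siMYOF (limma adjusted p = 2.52e-07) and measured -0.08 with WJ460 (limma adjusted p = 0.333). TIAL1 rose by 0.78 and 0.52, and TIA1, a translational repressor, fell by 0.55 with siMYOF and rose by 0.44 with WJ460. Of 20 tested genes of the signalling chain downstream of VEGFR2, 8 rose and 3 fell with siMYOF, and 5 rose and 8 fell with WJ460, beside the same shares of all tested genes. PLCG1, the phospholipase that binds the activated receptor, fell by 0.98 and 0.18, PXN (paxillin) rose by 1.04 and 0.65, and GRB2 rose by 0.37 with siMYOF and fell by 0.47 with WJ460. For PXN the controls differed, siGL3 minus DMSO being -0.77 (limma adjusted p = 5.91e-07). The PXN means were 6173 in siGL3, 12202 in siMYOF, 13032 in DMSO and 20436 in WJ460, so the siMYOF mean did not exceed that of DMSO. PIK3CA rose by 0.60 with siMYOF and measured -0.04 with WJ460 (limma adjusted p = 0.647). These genes serve many receptors, and KDR itself was close to unread. List counts were taken under the deposited scaling alone. With scaling by total reads the median of all tested genes was -0.096 with siMYOF and -0.15 with WJ460, so the sign of log2 values smaller than such a shift depends on the scaling.

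**Figure D4:**
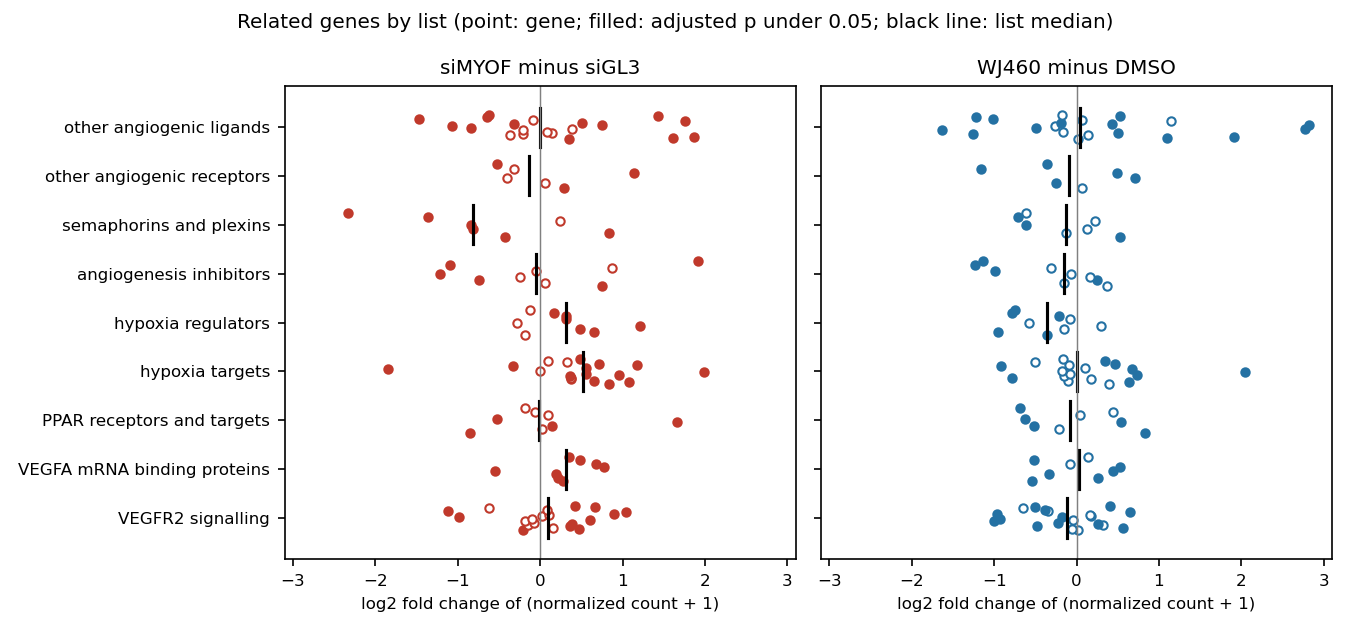
Log2 fold change of the normalized count + 1 (x axis) of each tested gene of 9 related lists (y axis) for siMYOF minus siGL3 (left) and WJ460 minus DMSO (right). Filled points passed at a limma adjusted p under 0.05 and black lines are list medians; hypoxia regulators have medians of 0.31 and -0.35, and semaphorins and plexins -0.81 and -0.13.

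By the pattern over the 10 late libraries, the tested genes most like VEGFA among 10961 with a mean of at least 50 were RNF146 (a ubiquitin ligase, Pearson r = 0.978), DCTN6 (a dynactin subunit, r = 0.977) and GPRC5B (an orphan receptor, r = 0.968). For ANGPTL4 they were GNPDA1 (r = 0.993), WDR1 (r = 0.989) and MEF2C (r = 0.989), and for VEGFB MEA1 (r = 0.979), CCDC113 (r = 0.979) and CTNNBIP1 (r = 0.974). The libraries share their groups and scaling, so these values describe likeness of pattern only.

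Markers of other cell types were examined because endothelial cells express FLT1 and KDR. Of 10 endothelial markers, CLDN5 and EMCN had 0 reads in every library, and PECAM1, CDH5, VWF and TEK were close to 0. TIE1 and ROBO4 were low, and only ESAM and ERG were above the filter. Group means of TIE1 were 5.96 in siGL3, 2.21 in siMYOF, 2.05 in DMSO and 8.90 in WJ460. Those of ROBO4 were 1.06, 1.97, 0 and 3.23 in the same order. The summed normalized count of the 10 markers came mostly from ESAM and ERG. It was 96.8 to 197 in siGL3, 336 to 454 in siMYOF, 118 to 179 in DMSO and 186 to 203 in WJ460. The sum was thus higher in siMYOF than in siGL3, while the members moved in both directions. ESAM, a junction protein, rose by 1.61 and 1.32 and ERG, a transcription factor, rose by 1.26 with siMYOF and fell by 0.99 with WJ460. The part of this sum in the member results was not tested. Of 8 fibroblast markers, FAP, COL1A2, LUM and DCN were at 0 in every library, PDGFRB and THY1 were tested, and the sum ran from 458 to 1337 in siGL3, 533 to 1154 in siMYOF, 818 to 885 in DMSO and 432 to 598 in WJ460. THY1 fell by 0.70 with WJ460 (limma adjusted p = 3.80e-05) and measured 0.00 with siMYOF (limma adjusted p = 0.975). The leukocyte sum was between 6.26 and 38.4 in all libraries. Of 8 genes listed as ductal carcinoma markers 7 were tested, and KRT7 was below the filter. The list also holds VIM, a filament gene of mesenchymal cells that is not specific to ductal carcinoma. With siMYOF KRT18 rose by 0.82, KRT8 fell by 0.96 and MUC1 fell by 1.21. VIM rose by 0.20 with siMYOF, with 0.50 between the early libraries and 0.04 between the late ones. With WJ460 KRT8 rose by 0.57, KRT18 rose by 0.32 and KRT19 fell by 0.65. CDH1, read at a low level, fell by 2.17, from a mean of 12.9 in DMSO to 2.18 in WJ460. VIM, which made up most of the sum, measured 28242 in the early siGL3 and 39993 in the early siMYOF library and 93282 to 96232 in the late siRNA libraries, and the part of these values in the member results was not tested.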

How the data were processed

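Gene expression was measured by stranded mRNA sequencing of 12 PANC-1 libraries in 4 groups. As the submitters' processing notes and the methods of the study state, the authors used STAR, Salmon, GRCh38 and DESeq2, with versions not given in the sources used here. The deposited signal values are gene read counts divided by 1 size factor per library. Whole reads were recovered for 100% of values (tolerance 0.001 reads), with 12335147 to 19847210 reads per library, and 29768 of 60617 genes had a read.

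An edgeR test of counts had been planned for raw counts. Because the values are normalized, the main test was limma 3.58.1 (trend, robust) in R 4.3.3 on log2(value + 1) over 14720 genes with a mean of at least 5, with group and batch terms. edgeR 4.0.16 (quasi-likelihood) and DESeq2 1.42.0 were run on recovered reads as alternatives. The fold change of a gene with few reads is understated on this scale. Ligand shares used exact permutation tests. Levels per kb used MANE Select transcript lengths from the GENCODE annotation. Scripts were tested on simulated data.

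Named genes were the 10 members, MYOF, and from each list up to 4 tested genes with the smallest p in either treatment, plus genes whose product acts on a member. The 3 genes most like a member were taken by Pearson r for VEGFA and the 2 other members with the largest change. Members and lists were chosen with earlier results of these data known. Same-numbered siMYOF and siGL3 libraries deviated together (r of deviations from group means 0.818, 0.53 and 0.595), as the batches in the labels divide them in the same way, and for libraries 2 and 3 the correlation after the batch term was -0.0426 and -0.0131. WJ460 and DMSO libraries did not pair (r = 0.0262, -0.002 and 0.00458). Intervals for counts of 0 cover counting error only.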

Additional observations from a re-analysis of the deposited data

Results flagged for a closer look

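A test of the difference between the knockdown effect (siMYOF minus siGL3) and the inhibitor effect (WJ460 minus DMSO) passed for 4 members, each with 3 libraries per group. VEGFA differed by 1.40 on the log2 scale (limma adjusted p = 7.60e-07), higher than its siGL3 libraries of the same batch in 3 of 3 siMYOF libraries and lower than DMSO in 3 of 3 WJ460 libraries. NRP1 differed by 1.42 (limma adjusted p = 4.12e-09), with the same directions in 3 of 3 libraries each. ANGPTL4 differed by 1.51 (limma adjusted p = 3.25e-06), with 3 of 3 siMYOF libraries above siGL3 and WJ460 libraries overlapping DMSO. VEGFB differed by -0.83 (limma adjusted p = 3.52e-04), being lower in 3 of 3 libraries of both treatments.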

How the results depend on the processing

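In 25 alternatives (other tools, scalings, pseudocounts and filters, no batch term, late libraries only, a replicate block, and leaving out each of 12 libraries) every call of ANGPTL4, VEGFB and NRP1 with siMYOF, and of VEGFC, VEGFB and NRP1 with WJ460, kept its direction and passed. Without the batch term, 2 members rose with siMYOF (4 in the main test; VEGFA and VEGFC were lost), 1 was higher and 0 were lower in siGL3 than in DMSO (2 and 2), VEGFA was lost in these comparisons and with WJ460, and over all genes 5140 (7784) passed with WJ460, 4309 (7093) for the difference between the effects and 1331 (4720) for siGL3 minus DMSO. In the late libraries alone 2 members (1) were lower for the difference between effects, VEGFC joining VEGFB. Members lower in siGL3 than in DMSO numbered 1 with no filter and 1 with limma without trend and robust settings, NRP1 being lost. Leaving out 1 library gave 3 to 4 members higher with siMYOF, 3 to 4 higher and 1 to 2 lower for the difference between effects (PGF gained without DMSO replicate 1, adjusted p = 0.0246, and also with limma without trend and robust settings, 0.0375), and 2 to 3 higher (VEGFC gained without the early siGL3 or siMYOF library) and 1 to 2 lower in siGL3 than in DMSO. The ANGPTL4 difference with WJ460, which never passed, was 0.05 in the main test, -0.11 with scaling by total reads, -0.027 without DMSO replicate 2, -0.10 without WJ460 replicate 1 and between -0.10 and 0.16 over all libraries left out, and the cause was not tested. With the replicate number as a block, 4 members rose and 1 fell with siMYOF, and no member call changed. The comparisons between effects and between controls need all groups, so no fit of only the groups compared was made for them. Depth limits FLT1, KDR, ANG and NRP2, which had at most 30 reads in any library.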

Other observations

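Some listed genes outside the naming rule were chosen after their values were seen. The ligand list held 7 genes that rose and 6 that fell in each comparison, so the rises below do not describe the list. PDGFB fell by 0.64 with siMYOF (limma adjusted p = 0.00316) and by 1.22 with WJ460 (limma adjusted p = 9.52e-06). EDN1 fell by 0.85 with siMYOF (limma adjusted p = 7.87e-06) and by 0.49 with WJ460 (limma adjusted p = 0.00178). ANGPT1 and ANGPT2, the angiopoietins that act on the endothelial kinase TEK, both rose with both treatments. ANGPT2 had group means of 19.7 in siGL3, 73.0 in siMYOF, 6.72 in DMSO and 28.2 in WJ460, with log2 fold changes of 1.86 (limma adjusted p = 4.28e-05) and 1.92 (limma adjusted p = 3.38e-05). ANGPT1 rose by 1.61 (limma adjusted p = 0.00255) and 1.10 (limma adjusted p = 0.0289). Its level was low, and DMSO (2.95, 8.83 and 6.88) and WJ460 (6.43, 21.9 and 16.8) overlapped. CXCL8 (interleukin 8), a chemokine for neutrophils that also acts on vessels, rose by 2.77 with WJ460 (limma adjusted p = 3.53e-05) from a DMSO mean of 1.39 and measured 0.38 with siMYOF (limma adjusted p = 0.49). Its level was low and its controls differed, siGL3 lying 2.17 above DMSO on the log2 scale (limma adjusted p = 0.00175). CXCL8 in siGL3 (8.06, 10.2 and 12.2) overlapped WJ460 (21.4, 8.35 and 18.0). FLT4 rose by 0.71 with WJ460 (limma adjusted p = 0.0451) and measured -0.40 with siMYOF (limma adjusted p = 0.256).

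VASH2, a relative of VASH1, had means of 5.63 in siGL3, 19.9 in siMYOF, 11.7 in DMSO and 4.30 in WJ460. It rose by 1.91 with siMYOF (limma adjusted p = 0.00211) and fell by 1.14 with WJ460 (limma adjusted p = 0.0498), and these effects differed (limma adjusted p = 9.23e-04), while VASH1 fell with both.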
